A study of Mus musculus with 24 samples.

Results

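The 4 mammalian Hox clusters, Hoxa, Hoxb, Hoxc and Hoxd, were examined in 20 maps of histone modifications from a mouse neuroblastoma line. Members were all protein-coding RefSeq genes of the mouse assembly GRCm38 (mm10) with a symbol made of Hoxa, Hoxb, Hoxc or Hoxd and a number, which gave 39 of 21887 genes. The rule reads gene symbols only. Hoxa has 11 members on chr6:52155367-52260880, Hoxb 10 on chr11:96194316-96368254, Hoxc 9 on chr15:102921131-103036856 and Hoxd 9 on chr2:74668225-74765142. The records of 10 members overlap another member's record, for example Hoxa3 with Hoxa4, Hoxa5 and Hoxa6, so these members share peaks.

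Hox genes encode homeodomain transcription factors that give cells a position along the body axis, and the order of the genes in a cluster follows the order of their domains from head to tail. Low-numbered members act in the hindbrain and neck, and high-numbered ones in the lumbar, sacral and limb regions. Polycomb complexes keep silent Hox genes under trimethylation of histone H3 at lysine 27 (H3K27me3), while trithorax proteins keep active ones open, and cells of the trunk carry this pattern as a memory of their origin. Of the other marks mapped, H3K4me3 and H3K27ac sit at active promoters, H3K4me1 typically flanks promoters and marks enhancers, and H3K36me3 follows transcription through gene bodies.

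The cells were N1E115, an established mouse neuroblastoma line, labelled as positive for the neuronal nitric oxide synthase NOS1 and held for 3 days at either 20% or 4% oxygen. All groups are this line; the labels name no other genotype or agent. Chromatin immunoprecipitation with sequencing was done for the 5 marks with 2 libraries per mark and oxygen level, called set 1 and set 2 here (titles of set 2 end in rep), and the files of 4 input samples were not used here. Nothing in the labels ties the libraries to separate cultures, so the spread between them may be technical. With 2 libraries against 2, the smallest exact permutation p is 0.333, so coverage is described by the values of every library and by whether the oxygen levels overlap.

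The lists held 26489 to 50496 H3K4me3 peaks per library, 60786 to 94286 for H3K27ac and 99749 to 126503 for H3K4me1, with unknown read depth. Islands, the broad enriched regions called for the other marks, numbered 17535 to 20804 for H3K36me3 with 13350093 to 25048785 reads inside them, and 22718 to 34471 for H3K27me3 with 8479517 to 12228541 reads. Of 9 sympathetic neuroblastoma markers, such as Hand2 and Dbh, 8 had H3K4me3 and 9 had H3K27ac on the gene record in all 4 libraries, and 0 had H3K27me3 over at least 25% of it. Of all protein-coding genes, 59.2% had H3K4me3 and 47.6% had H3K27ac in all 4 libraries. Of 15 markers of glia, immune cells, endothelium, liver and muscle, H3K4me3 was found in all 4 libraries on Gfap, Pecam1, Apoa1 and Myog. H3K27ac was found in all 4 on Pecam1 and Myog. On Cd68, a macrophage gene, H3K27ac was found at 4% oxygen only, over 27.9% and 13.1% of the record.

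H3K27me3 covered most of the Hox genes at both oxygen levels. A gene's covered share is the percentage of its RefSeq record that lies under peaks or islands of a library. H3K27me3 touched 31 of 39 members in all 4 libraries, against 15.0% of all protein-coding genes, and covered at least 50% of the record of 19 members in all 4, against 9.28% of all genes. The mean covered share over the members was 59.0% and 72.1% at 20% oxygen (set 1, then set 2) and 58.9% and 62.9% at 4%. Over all protein-coding genes it was 11.1% and 12.3% at 20% and 12.8% and 11.7% at 4%.

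At 20% oxygen, H3K27me3 was fullest in Hoxb and over the posterior Hoxc genes. At 4% the mean over members was 86.3% and 73.2% in Hoxb and 73.8% and 88.2% in Hoxd (set 1, then set 2). Hoxb13, which is expressed at the tail end and in the prostate, was covered over 100% of its record in all 4 libraries. So were Hoxc11, which acts in the hindlimb and lumbar region, Hoxd4, a hindbrain and neck gene, and Hoxd12, a limb gene. At the other end, Hoxa4 was covered over 35.6% of its record in the 20% library of set 2 and over 0 in the other 3 libraries. Hoxa13, a digit and genital tubercle gene, had 7.30% and 46.7% at 20% oxygen and 17.2% and 0 at 4%. Among group 13 paralogues, which derive from one ancestral gene, the mean over the 4 libraries was 17.8% for Hoxa13, 82.8% for Hoxd13, 91.7% for Hoxc13 and 100% for Hoxb13.

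**Figure D1:**
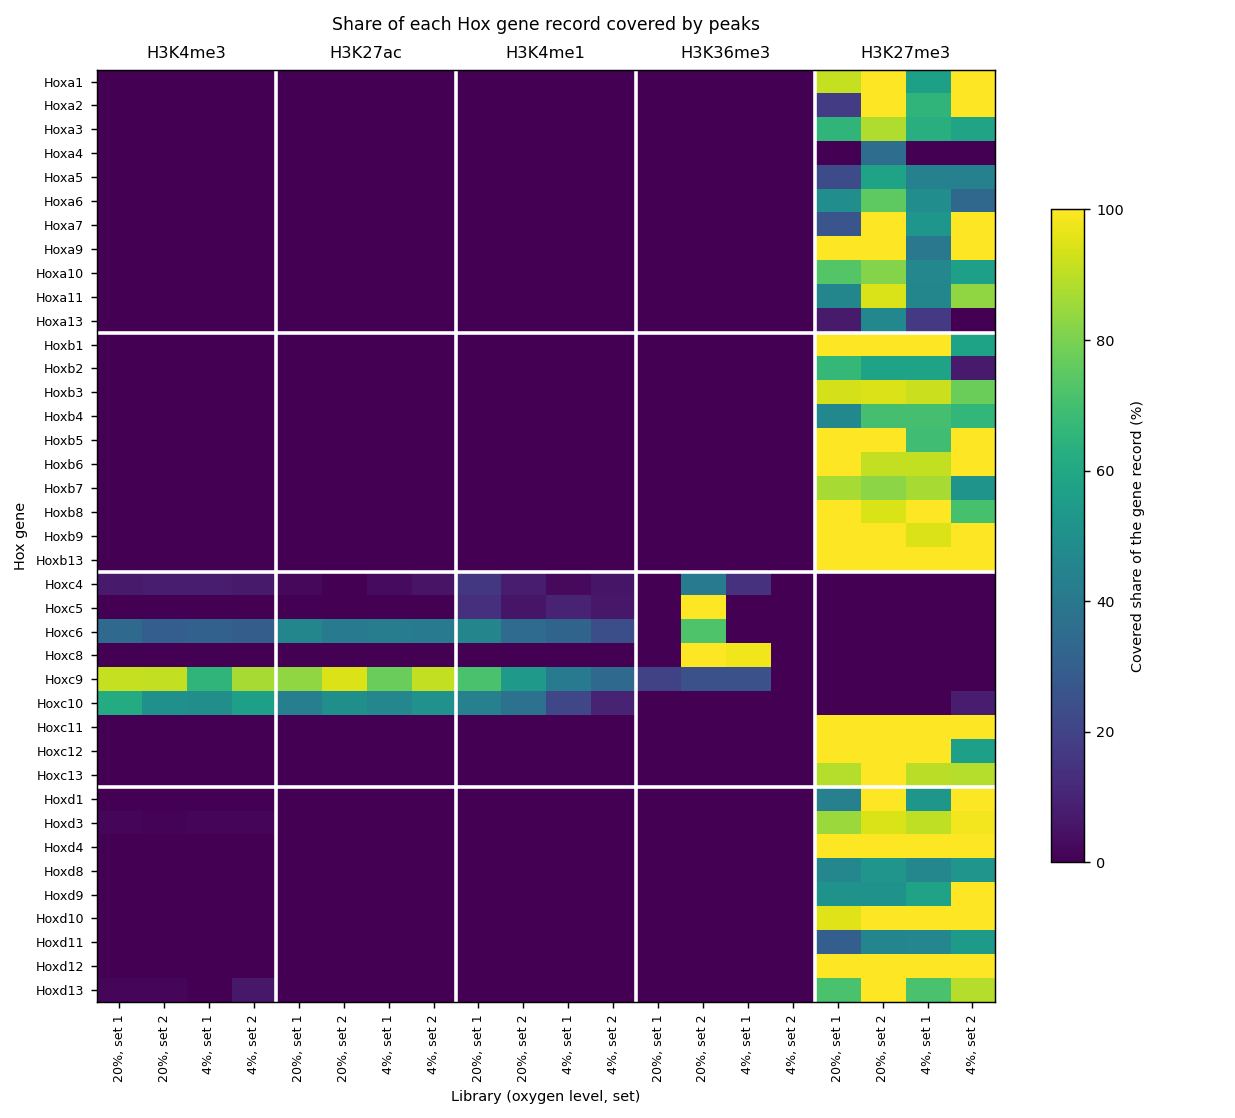
Covered share of the gene record (colour, 0 to 100%) for the 39 Hox genes (rows, by cluster and number) in the 20 libraries (columns, 4 per mark, ordered 20% set 1, 20% set 2, 4% set 1 and 4% set 2). H3K27me3 lies over members of Hoxa, Hoxb and Hoxd, with little on Hoxa4 and Hoxa13, and over Hoxc11 to Hoxc13. The other marks lie over Hoxc4 to Hoxc10 apart from small H3K4me3 peaks in Hoxd3 and Hoxd13.

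Along whole clusters, H3K27me3 covered 94.5% and 95.4% of Hoxb at 20% oxygen and 93.4% and 82.1% at 4%. For Hoxd the values were 73.6% and 83.9% at 20%, and 82.1% and 86.4% at 4%. For Hoxa they were 68.5% and 91.6% at 20%, and 59.4% and 71.1% at 4%. Hoxc stood apart with 38.2% and 39.3% at 20%, and 38.6% and 38.4% at 4%, the narrowest range of the 4 clusters. Stretches of at least 1000 bp free of H3K27me3 in all 4 libraries numbered 5 in Hoxa, 1 in Hoxb, 1 in Hoxc and 4 in Hoxd. The longest was 2.4 kb in Hoxa, 1.4 kb in Hoxb and 3.4 kb in Hoxd, but 69.7 kb in Hoxc.

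The gaps shared by all 4 libraries were short outside Hoxc. In Hoxa they were found within Hoxa3 (1 kb), over Hoxa4 (1.8 kb), across Hoxa5 and Hoxa6 (2.4 kb), within Hoxa10 (1.8 kb) and over Hoxa13 (1.08 kb). The Hoxa13 gap was counted only up to the end of the cluster and runs on past it. In Hoxd the 3.4 kb gap lay in Hoxd11, a forelimb and sacral gene, and one of 1.6 kb lay in Hoxd8. The 2 remaining Hoxd gaps, of 1 kb and 2.4 kb, and the Hoxb gap of 1.4 kb, touched no member. No H3K4me3, H3K27ac, H3K4me1 or H3K36me3 peak touched the Hoxa or Hoxb cluster in any library, so these gaps were empty of all 5 marks there.

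**Figure D2:**
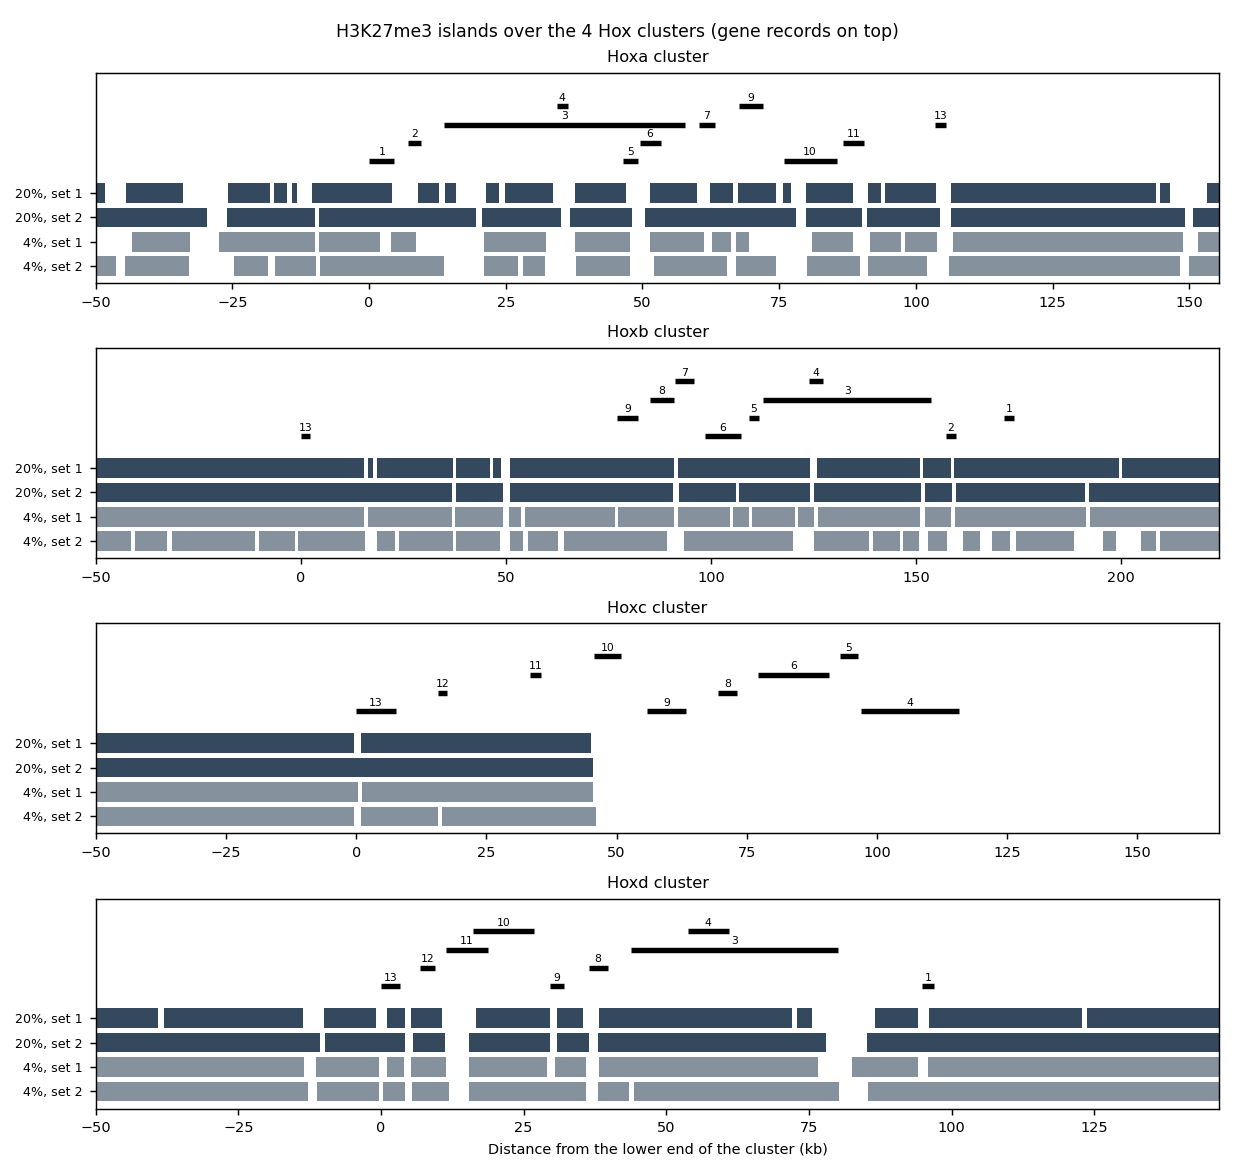
H3K27me3 islands (bars) in the 4 libraries over each Hox cluster and 50 kb on both sides, by distance in kb from the end with the lower coordinate; black bars are the gene records with their numbers. Hoxa, Hoxb and Hoxd are covered with gaps that are short where all 4 libraries share them, and Hoxc is covered only up to Hoxc10.

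Start sites show the gaps at a finer scale. The RefSeq promoter table for GRCm38.p6 matched 22 of the 39 members, with 24 start sites, and H3K27me3 was read within 500 bp on either side of each. In all 4 libraries, H3K27me3 touched 11 of the 24 windows, or 45.8%, against 8.61% of 21263 start sites of all genes, and 9 windows were fully covered in all 4. The 4 windows without H3K27me3 in any library belonged to Hoxa5, Hoxa13, Hoxc4 and one of 2 start sites of Hoxd11. H3K4me3 touched 0 of the 24 windows in any library, where it touched 53.2% of all start sites in all 4, and Hoxc6, Hoxc9 and Hoxc10 are not among the 22 genes. The 9 fully covered windows held 4 to 26 CG dinucleotides in the 300 bases printed by the table, while the free windows of Hoxa5, Hoxa13, Hoxd11 and Hoxc4 held 29, 45, 25 and 9. The ranges of the covered and the free windows overlapped.

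4 promoter sequences show windows of both kinds, each from 250 bases before the start to 50 bases after it, 5′ to 3′ on the strand of the gene, with CG dinucleotides in capitals (RefSeq, GRCm38.p6). Hoxd4 (chr2:74721728-74722027, plus strand, 4 CG, 39.7% G and C) was covered by H3K27me3 in all libraries. Hoxa5 (chr6:52204538-52204837, minus strand, 29 CG) was free of it inside a covered cluster. Hoxa13 (chr6:52260831-52261130, minus strand, 45 CG, 81% G and C) was free of it at the edge of that cluster. Hoxc4 (chr15:103034145-103034444, plus strand, 9 CG) lies in the free part of Hoxc.
Hoxd4: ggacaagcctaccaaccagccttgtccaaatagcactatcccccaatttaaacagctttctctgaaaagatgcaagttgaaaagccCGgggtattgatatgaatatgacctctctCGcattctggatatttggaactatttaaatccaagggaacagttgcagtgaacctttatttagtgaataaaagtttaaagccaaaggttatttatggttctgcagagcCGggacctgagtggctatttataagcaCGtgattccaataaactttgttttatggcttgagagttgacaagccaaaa
Hoxa5: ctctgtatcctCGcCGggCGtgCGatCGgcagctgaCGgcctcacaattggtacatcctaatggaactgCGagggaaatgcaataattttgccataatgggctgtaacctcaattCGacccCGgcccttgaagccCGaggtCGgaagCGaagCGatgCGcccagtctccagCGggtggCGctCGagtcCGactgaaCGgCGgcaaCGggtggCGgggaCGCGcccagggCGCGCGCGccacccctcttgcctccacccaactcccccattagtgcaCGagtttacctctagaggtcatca
Hoxa13: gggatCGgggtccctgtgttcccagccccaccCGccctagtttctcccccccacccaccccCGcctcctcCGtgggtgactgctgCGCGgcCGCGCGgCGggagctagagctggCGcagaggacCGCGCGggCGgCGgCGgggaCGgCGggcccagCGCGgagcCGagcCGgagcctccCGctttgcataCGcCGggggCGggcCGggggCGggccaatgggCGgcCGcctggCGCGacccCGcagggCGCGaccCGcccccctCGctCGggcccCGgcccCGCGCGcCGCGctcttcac
Hoxc4: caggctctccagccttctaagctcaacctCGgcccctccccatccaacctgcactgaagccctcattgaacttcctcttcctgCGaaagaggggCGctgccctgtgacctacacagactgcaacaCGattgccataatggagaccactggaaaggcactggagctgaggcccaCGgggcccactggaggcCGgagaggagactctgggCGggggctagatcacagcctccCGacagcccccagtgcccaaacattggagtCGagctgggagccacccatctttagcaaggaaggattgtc

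The letters ACGTG, one form of the core of the element that hypoxia-inducible factors bind, were searched on both strands of these 300-base windows. They were found in 7 of 24 member windows, or 29.2%, against 20.9% of the windows of all genes. They occur in the Hoxd4 window above and are not among the letters of the Hoxa5, Hoxa13 or Hoxc4 window. The other form, GCGTG, was not searched, and the Hoxa5 window above contains it. The letters TGATNNAT, a site type bound by Hox proteins together with partner proteins, were found in 4 of 24 windows, or 16.7%, against 7.45% of all. These matches are letters in a window, and binding was not measured.

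Hoxc was split at Hoxc10. H3K27me3 filled the part with the posterior genes Hoxc13, Hoxc12 and Hoxc11, and no island touched Hoxc9, Hoxc8, Hoxc6, Hoxc5 or Hoxc4 in any library, which are 5 of the 39 members. On Hoxc10, which acts in the lumbar spinal cord and hindlimb, islands covered 0 in 3 libraries and 7.94% of the record in the 4% library of set 2. The domain ended 596 bp and 196 bp before the lower end of the Hoxc10 record (position 102966796) in the 20%-oxygen libraries. At 4% it ended 196 bp before that position in set 1 and 404 bp past it in set 2. Islands end on a 200 bp grid, so the 4 end points lie within 5 grid steps, and the oxygen levels overlapped.

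On the other side of the boundary, the H3K4me3 peak that touches Hoxc10 began 866 bp and 124 bp before the same position at 20% oxygen and 874 bp and 113 bp before it at 4%. In set 2 the short distances go with separate peaks ahead of it, the nearest of which began 1574 bp before the position at 20% and 1094 bp before it at 4%. Set 1 had no such peak within the cluster. The next H3K27me3 island after the boundary lay 358 to 371 kb further on. Before the cluster, the same H3K27me3 domain began 198 to 199 kb ahead of Hoxc13. The longest island of this domain held 12667 and 16354 reads at 20% oxygen and 10094 and 10096 at 4%, which ranked it 6, 10, 10 and 17 by reads among all islands of the library. Its extent differed between libraries. In the 20% library of set 2 it was 243.8 kb long and ran over Hoxc genes to position 102966600. In the others it was 198 to 198.2 kb long and ended at position 102920800 to 102921400. Hoxc13 begins at position 102921131, so in those libraries the island lay outside the cluster or barely entered it. Reads of this island thus do not compare the Hoxc genes between oxygen levels. Reads per kb in the islands over Hoxc were 2.13 and 2.02 times those over all islands at 20%, and 2.16 and 1.72 times at 4%. The same ratio was 0.869 to 1.10 for Hoxa, 0.851 to 1.25 for Hoxb and 1.13 to 1.26 for Hoxd. These ratios take each island that touches a cluster at its full length. The longest one touching Hoxc was 44.2 and 243.8 kb at 20%, and 198 and 29.6 kb at 4%. The Hoxc ratios thus describe different stretches in different libraries and do not compare the oxygen levels.

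**Figure D3:**
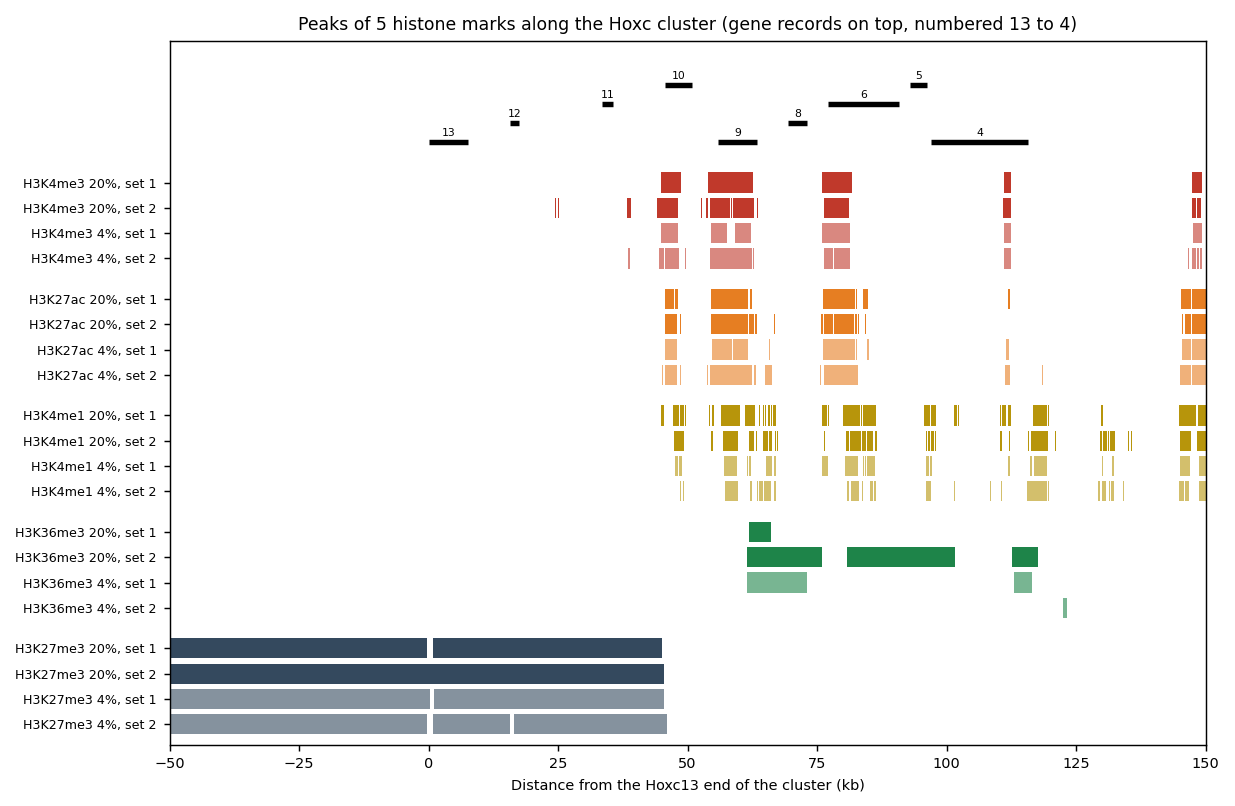
Peaks and islands of the 5 marks (colours) in 4 libraries each along the Hoxc cluster, by distance in kb from the Hoxc13 end, with gene records on top (13 to 4 from left to right) and 4% libraries in lighter shade. H3K27me3 stops between Hoxc11 and Hoxc10 or just inside Hoxc10, near where the broad peaks of H3K4me3, H3K27ac and H3K4me1 begin, with a few short H3K4me3 peaks of set 2 further left.

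Marks that sit at active promoters lay on the records of Hoxc10, Hoxc9, Hoxc6 and Hoxc4. H3K4me3 touched 5 of 39 members in all 4 libraries, or 12.8%, against 59.2% of all protein-coding genes. H3K27ac did so for 3 members against 47.6%, H3K4me1 for 5 against 29.5% and H3K36me3 for 0 against 44.4%. The 6 genes from Hoxc10 to Hoxc4 were set apart from the other 33 after the values were seen, as a description only.

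Hoxc9, a thoracic gene, carried the widest cover. H3K4me3 covered 91.0% and 90.8% of its record at 20% oxygen and 65.5% and 86.9% at 4%. H3K27ac covered 83.5% and 94.6% at 20% and 77.2% and 90.8% at 4%. Its strongest H3K27ac peak stood at the 97.4th to 99.0th percentile of the scores in its library. For Hoxc9 H3K4me3, the single peak of 8744 bp in the 20% library of set 1 is 2 peaks in the 4% library of the same set, with 3205 bp the longer one. These libraries came from different flow cells, so oxygen and flow cell cannot be told apart between them.

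Hoxc10 had H3K4me3 over 61.5% and 50.3% of its record at 20% oxygen and 49.5% and 56.3% at 4%. Its H3K27ac share was 42.7% and 49.7% at 20%, and 46.3% and 50.5% at 4%. The oxygen levels overlapped for both marks. Hoxc6, a gene of the neck-to-thorax transition and forelimb, had H3K4me3 over 34.3% and 29.7% at 20%, and 31.0% and 29.5% at 4%. Its H3K27ac share was 45.8% and 41.5% at 20%, and 42.0% and 40.8% at 4%. The oxygen levels overlapped for both marks, with the 20% library of set 1 highest in each. The strongest Hoxc6 H3K27ac peak was at the 99.6th to 99.9th percentile of its library.

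Hoxc4, the most anterior gene of the cluster, had a small H3K4me3 peak of 1329 to 1483 bp in all 4 libraries, at 7.08% and 7.91% of the record at 20% oxygen and 7.59% and 7.09% at 4%. Its H3K27ac share was 2.22% and 0 at 20%, and 3.01% and 5.38% at 4%. No library had H3K4me3, H3K27ac or H3K4me1 within 500 bp of the listed Hoxc4 start site. The Hoxc4 peaks thus lay in the record and not at that start. Hoxc5 and Hoxc8, both free of H3K27me3, had no H3K4me3 or H3K27ac peak in any library. These 2 genes were thus without H3K27me3 and without H3K4me3.

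H3K36me3 was the least repeatable mark here. Hoxc8 was covered over 0 and 100% at 20% oxygen and 98.0% and 0 at 4%. Hoxc9 was covered over 19.5% and 24.9% at 20%, and 24.9% and 0 at 4%. Hoxc6 and Hoxc5 were covered, over 72.4% and 100%, only in the 20% library of set 2, and Hoxc4 over 41.4% there and 14.2% in the 4% library of set 1. The 4% library of set 2 had H3K36me3 on 0 members and the 20% library of set 1 on 1, although the latter had the most reads in islands of the 4, 25048785. No member separated by oxygen (0 higher against 12.2% of all genes with an island, and 0 lower against 15.5%). For Hoxc8 the 2 libraries of each oxygen level stood at or near opposite ends of the scale. H3K36me3 read density was not compared at Hoxc, since none of its 3 regions had an island in all 4 libraries.

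**Figure D4:**
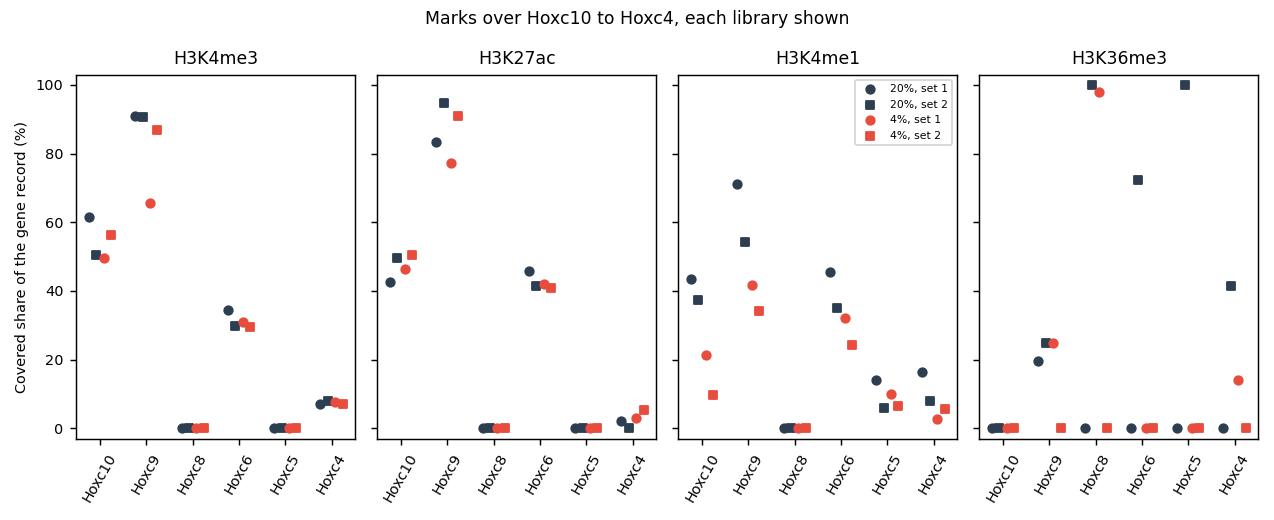
Covered share of the gene record (%) for Hoxc10 to Hoxc4 in each library; dark symbols are 20% oxygen, red symbols 4%, circles set 1 and squares set 2. H3K4me1 points at 4% lie under those at 20% for Hoxc10, Hoxc9, Hoxc6 and Hoxc4, while H3K27ac points mix except at Hoxc4, and H3K36me3 points range from 0 to 100% within an oxygen level.

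In Hoxd, H3K4me3 occurred inside the H3K27me3 domain. Peaks between Hoxd13 and Hoxd12, 3.12 to 6.0 kb from the Hoxd13 end, were found in all 4 libraries, over a place where H3K27me3 had a gap of 1 kb in all 4. A H3K27ac peak of 220 and 252 bp lay there at 20% oxygen, and at 4% one of 282 bp in set 2 and none in set 1. In Hoxd3, a hindbrain gene, a weak H3K4me3 peak covered 1.81% and 1.11% of the record at 20% and 1.33% and 1.86% at 4%. Hoxd13 was touched at its edge, over 1.78% and 1.57% at 20% and 0 and 6.48% at 4%. Of the H3K4me3 cover in Hoxd, 69.7% and 59.7% at 20% and 58.0% and 69.4% at 4% lay under H3K27me3 of the same oxygen level and set. In Hoxc the same share was 1.36% and 13.3% at 20%, and 4.13% and 10.7% at 4%. In both clusters the marks come from separate libraries, so cover of one place by both does not show both on one nucleosome or in one cell.

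At 4% oxygen, H3K4me1 covered less of 4 Hoxc genes, in a comparison that asks how the lower oxygen level altered the marks over members. H3K4me1 was lower in both 4% libraries than in both 20% libraries for 4 of the 5 members that had it in any library, Hoxc10, Hoxc9, Hoxc6 and Hoxc4, and higher for 0. Of all genes with H3K4me1, 52.9% separated in the same direction and 0.44% in the other, so lower H3K4me1 at 4% was found across the genome. Hoxc10 had 43.5% and 37.4% at 20% and 21.4% and 9.70% at 4%, and Hoxc9 71.3% and 54.3% at 20% and 41.7% and 34.1% at 4%. A gap of at least 5 percentage points was kept by these 2 members, against 14.2% of all genes. Hoxc6 had 45.5% and 35.1% at 20%, and 32.2% and 24.2% at 4%, and Hoxc4 16.4% and 7.93% at 20%, and 2.72% and 5.50% at 4%. Hoxc5 overlapped, with 13.9% and 5.82% at 20% and 9.88% and 6.55% at 4%.

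The mean H3K4me1 share over all genes was 6.05% ± 1.49 at 20% and 3.12% ± 0.0317 at 4% (SD, n = 2), and over the 6 genes from Hoxc10 to Hoxc4 it was 27.6% ± 5.90 and 15.7% ± 3.29. The number of H3K4me1 peaks was also lower at 4%, with 126503 and 124803 at 20% and 99749 and 117807 at 4%, and the same 4 members were lower when equal peak numbers were taken from every library. With gene records widened by 1000 bp, 3 members were lower, and of the 4 only Hoxc10 and Hoxc9 were among them.

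H3K4me3 and H3K27ac gave few members that separated. H3K4me3 was lower at 4% for Hoxc9 alone of 6 members with a peak, where 19.0% of all genes with a peak separated that way, and higher for 0 against 5.49%. The gap between the oxygen levels at Hoxc9 was 3.89 points, and the 4% library of set 1, at 65.5%, lay furthest from the others. H3K27ac was higher at 4% for Hoxc4 alone of 4 members, against 21.7% of all genes, and lower for 0 against 9.65%. The smaller of its gaps was 0.794 points. Neither gap reached 5 points, while 0.807% of all genes separated by that much in the first direction and 1.66% in the second.

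H3K27me3 separated in both directions. It was higher at 4% for 2 of 34 members with any cover, Hoxd9 and Hoxd11, against 13.1% of all genes, and lower for 3, Hoxa10, Hoxa3 and Hoxb3, against 6.03%. With a gap of at least 5 points, Hoxd9 remained on the higher side (6.7% of all genes) and Hoxa10 on the lower side (3.09%). Hoxd9, a limb and trunk gene, had 50.9% and 50.9% at 20% oxygen and 57.6% and 100% at 4%. Hoxa10, which patterns the uterus and lumbar region, had 73.1% and 81.4% at 20% and 46.1% and 56.5% at 4%. The other 29 members overlapped between the oxygen levels.

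The mean over the 39 members differed by -4.69 percentage points, 4% minus 20%, with -0.160 within set 1 and -9.22 within set 2, and one library set its sign. Without the 20% library of set 2 it was 1.86. The cluster differences were -14.8 for Hoxa, -7.14 for Hoxb, -0.259 for Hoxc and 5.48 points for Hoxd. The SD between libraries of one oxygen level was 12.97, 5.67, 0.561 and 5.58 points in the same order. Hoxa was -3.22 without the 20% library of set 2 and -26.3 without the 20% library of set 1. Hoxb was -1.49 without the 4% library of set 2 and -12.8 without the 4% library of set 1, and Hoxd 0.334 without the 20% library of set 1. In set 1 the 4% H3K27me3 library and its 20% partner came from different flow cells, while in set 2 both came from one, and oxygen and flow cell cannot be told apart within set 1.

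Read density within islands gave a second view of H3K27me3. Islands of the 4 libraries were merged into regions, and 10177 regions with an island in every library were compared by edgeR, with the covered length as an offset. Of these, 18 lay over the Hox clusters. edgeR called 0 regions at an adjusted p under 0.05 (0% higher and 0% lower at 4%), with 960 of 10177 regions and 4 of the 18 at an unadjusted p under 0.05. DESeq2 also called 0, with 467 and 2 at an unadjusted p under 0.05.

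Density in both 4% libraries was under both 20% libraries in 7 of the 18 regions (38.9%, against 18.2% of all regions) and above in 1 (against 13%). The 7 were 5 of the 6 Hoxa regions, the Hoxb3 to Hoxb7 region and the Hoxd3, Hoxd4 and Hoxd8 region; the 1 was the Hoxd13 region. The region of Hoxa10 and Hoxa11 had 3.66 and 3.75 reads per covered kb per 1000000 reads in the tested regions at 20% and 2.74 and 2.71 at 4%, a log2 difference of -0.43 (edgeR adjusted p = 0.406). The oxygen levels did not overlap there. The region that runs from Hoxa3 into Hoxa4, and reaches Hoxa4 in the 20% library of set 2 alone, had 3.60 and 3.58 at 20% and 2.64 and 2.90 at 4%, a log2 difference of -0.36 (edgeR adjusted p = 0.446). The median log2 difference was -0.18 over the 18 regions and -0.0025 over all regions, but over the 18 it was -0.030 without the 4% library of set 2 and -0.27 without the 4% library of set 1. The Hoxc region was the densest, with 7.65 and 5.93 at 20% and 6.65 and 5.57 at 4%, and these overlapped.

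**Figure D5:**
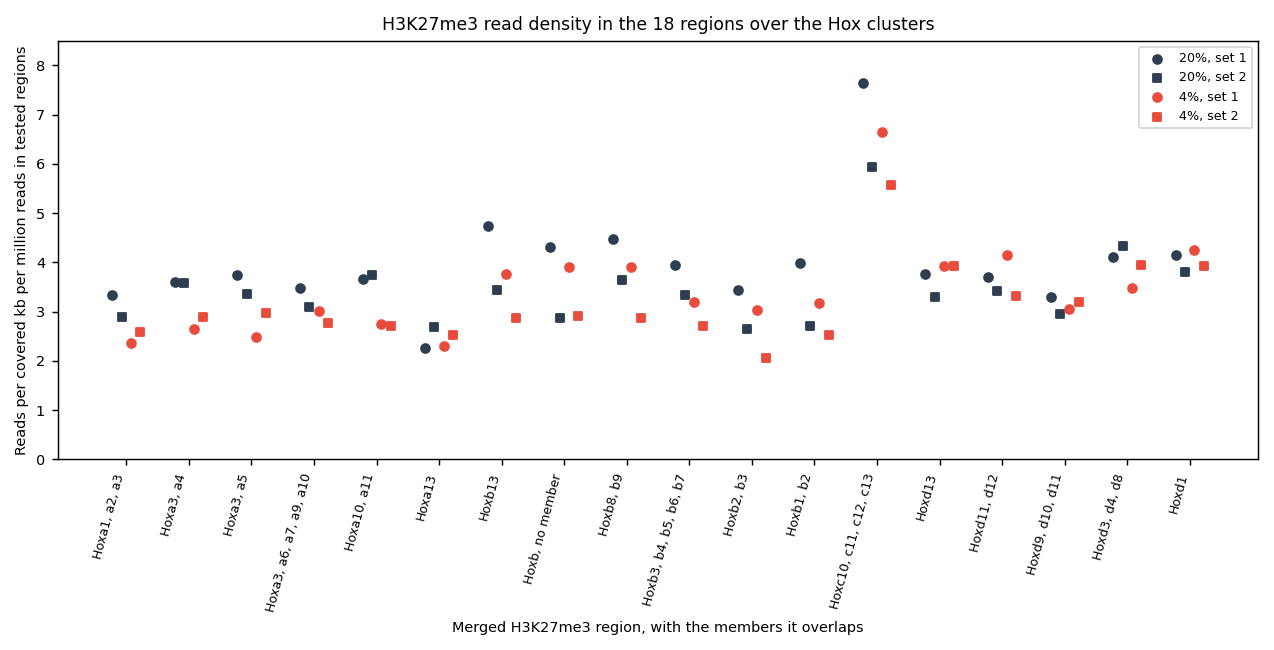
H3K27me3 reads per covered kb per 1000000 reads in the tested regions (y axis) in the 18 merged regions over the Hox clusters (x axis, named by the members they overlap), each library shown; dark symbols are 20% oxygen, red 4%, circles set 1, squares set 2. The Hoxc region stands highest, between 5.57 and 7.65, and 5 of the 6 Hoxa regions have both red symbols under both dark ones.

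The clusters also hold microRNAs, listed by position. Mir196a-2 and Mir615 lie in the free part of Hoxc, and no library had H3K27me3 on them. Mir196a-1, in Hoxb, and Mir10b, in Hoxd, were covered over 100% in all 4 libraries. Mir10a, in Hoxb, was covered in 3, all but the 4% library of set 2, and Mir196b, in Hoxa, only in the 20% library of set 2. The same mature miR-196a-5p is encoded by the covered Hoxb gene and by the free Hoxc gene. Mature sequences are shown 5′ to 3′ with bases 2 to 8, the seed, in capitals (RefSeq, GRCm38.p6), because the miRNAs fall into pairs by seed. Both miR-196 forms share AGGUAGU, and miR-10a-5p and miR-10b-5p share ACCCUGU, while miR-615-3p has a seed of its own.
miR-196a-5p: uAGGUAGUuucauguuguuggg
miR-196b-5p: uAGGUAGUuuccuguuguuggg
miR-10a-5p: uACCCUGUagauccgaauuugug
miR-10b-5p: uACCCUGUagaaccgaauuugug
miR-615-3p: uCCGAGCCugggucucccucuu

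Within 1000 bp of Mir196a-2, H3K4me3 covered 221 bp in the 20% library of set 2 and 0 in the other 3. Mir615 had H3K36me3 over 100% of its record in that set's 20% library and 0 elsewhere. Hotair, a long non-coding RNA between Hoxc12 and Hoxc11 that has been linked to Polycomb, was covered by H3K27me3 over 100% in all 4 libraries. H3K4me3 also covered 13.2% of Hotair at 20% oxygen and 4.53% at 4% in set 2, and 0 in both libraries of set 1. The long non-coding RNAs Gm36878 and Gm29905, in the Hoxc9 and Hoxc6 neighbourhood, had no H3K27me3 and carried H3K4me3 in every library, over 100% for Gm36878 and over 77.9% to 100% for Gm29905. These non-coding genes were listed from the annotation by position after the maps were seen.

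Genes that act on Hox chromatin carried active promoter marks. Of all genes, 59.2% had H3K4me3 and 47.6% had H3K27ac in all 4 libraries. On the Polycomb list, 18 of 18 genes, which include the H3K27 methyltransferase genes Ezh1 and Ezh2, had H3K4me3 and H3K27ac in all 4 libraries, and 0 had H3K27me3 over at least 25% of the record in all 4, where 11.8% of all genes did. Rbbp7, a histone-binding subunit, had H3K27me3 over 48.1% at 20% oxygen and 94.2% at 4% in set 1, and 0 in both libraries of set 2. By oxygen, H3K4me3 was lower at 4% for 4 of the 18 and higher for 1 (19.0% and 5.49% of all genes), and H3K27ac lower for 0 and higher for 1 (9.65% and 21.7%). H3K4me1 was lower for 9 and higher for 0 (52.9% and 0.44%), and H3K36me3 lower for 0 and higher for 4 (15.5% and 12.2%). The trithorax and H3K27 demethylase list, with Kmt2a and Kdm6a, had H3K4me3 on 10 of 10 genes and H3K27ac on 9 in all 4 libraries, and H3K27me3 on 0 in any. The exception was Wdr5, with H3K27ac over 3.41% and 3.31% at 20% and 0 and 2.0% at 4%. Of 8 Hox cofactor genes, such as Meis1 and Pknox1, which bind DNA with Hox proteins, 8 had H3K4me3 and 7 H3K27ac. Of 11 upstream regulators, Cdx2, Cdx4, Rarg and Aldh1a2 had H3K27me3 over at least 25% of the record in all 4 libraries; Rarg also had H3K4me3. Of 3 genes listed as ParaHox, Gsx1, Gsx2 and Pdx1, only Pdx1 was fully covered by H3K27me3 in all 4 libraries.

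H3K27me3 differed among the genes next to the clusters. Of 11 neighbours, H3K27me3 covered at least 25% of Evx2, Skap2, Skap1 and Ttll6 in all 4 libraries. Evx2, a homeobox gene next to Hoxd13, had 57.8% and 90.6% at 20% oxygen and 76.6% and 81.2% at 4%. Evx1, the homeobox gene beside Hoxa13, had 20.2% and 18.2% at 20% and 20.2% and 2.11% at 4%. Mtx2, Lnpk, Hibadh, Calcoco1, Smug1 and Cbx5 had 0 in all 4 and H3K4me3 in all 4. Smug1, a uracil DNA glycosylase gene beyond Hoxc4, had H3K4me3 over 31.0% and 32.6% at 20% and 25.3% and 33.1% at 4%. On the Hoxc4 side, the last members and the neighbours Smug1 and Cbx5 thus all lacked H3K27me3 islands.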

How the data were processed

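ChIP-seq peak lists of 20 libraries were used. Per the file headers and the submitters' processing notes, BWA alignments to mm10 were treated with Picard and MACS2 or SICER called the peaks; versions are not given in the sources used here. The authors deposited MACS2 peaks for H3K4me3, H3K27ac and H3K4me1 with a score read as a −log10 value, and SICER islands for H3K36me3 and H3K27me3 whose last column was read as a count of reads in the island. Peaks were called per library, so a covered share depends on depth and on the caller's threshold, and a share of 0 means no called peak. Intervals of set 2 for MACS2 marks matched the summit lists of that library in 100% of names and scores.

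Covered shares were computed over RefSeq records (GRCm38.p6, the assembly of mm10). H3K27me3 reads in merged regions were compared with edgeR 4.0.16 quasi-likelihood tests without a block for set (R 4.3.3, TMM, Benjamini-Hochberg, DESeq2 1.42.0 as alternative). The code was checked on simulated counts with one length for all regions and changes larger than those over Hox. That check thus does not show that differences as small as those over Hox could be found. Members separated by oxygen when the 2 libraries of one level all exceeded those of the other. The members, lists and tests were chosen with earlier results of these data known, and 2 genes of the lists are not reported here. Values in every library were printed for members with H3K4me3, H3K27ac or H3K36me3 in all libraries, members without H3K27me3, and members separating by at least 5 points; others named were chosen after their values were seen. Alternatives were a stricter threshold (MACS2 score of 5, or the lowest 25% of islands by reads left out), equal peak numbers, records widened by 1000 bp, clusters by 50000 bp, other normalizations, and leaving out each library. Flow cells, per the file headers, numbered 3. In set 1 the 20% and 4% libraries of every mark but H3K4me1 came from different flow cells, while the set 2 libraries shared a flow cell.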

Additional observations from a re-analysis of the deposited data

How the results depend on the processing

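Taking only a gap of at least 5 points, the members lower at 4% fell to 0 for H3K4me3, 2 for H3K4me1 and 1 for H3K27me3, and those higher to 0 for H3K27ac and 1 for H3K27me3. With equal peak numbers 2 members were higher for H3K27ac, and with records widened by 1000 bp 1 was higher for H3K27me3. The mean H3K27ac difference over members, -0.0533 points, turned to 0.176 with a stricter threshold and 0.284 with equal peak numbers. Under the stricter threshold the Hoxb H3K27me3 difference was -15.6 points. The cause of these changes was not tested. The remaining 79 alternatives that kept all libraries kept their direction and stayed within 1.5 times (counts) or 1 SD (differences). An equal count did not always mean the same member. With equal peak numbers the 1 member lower for H3K4me3 was not Hoxc9. Under the stricter threshold the 1 member higher for H3K27ac was not Hoxc4.

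Leaving out each library in turn, so that one arm has 1 library, moved counts of separating members, which then need fewer libraries to agree. For H3K4me3 they were 0 to 2 higher and 2 to 3 lower; for H3K27ac 1 to 2 higher and 1 lower each time; for H3K4me1 0 to 1 higher; for H3K36me3 0 to 4 lower; for H3K27me3 2 to 9 higher and 4 to 10 lower. Members with H3K36me3 in every remaining library were 0 to 1. Mean differences ranged from -0.296 to 0.190 points for H3K27ac (0.0950 without the 20% library of set 2), -6.93 to 1.26 for H3K36me3 and -11.2 to 1.86 for H3K27me3, and the Hoxc cluster difference from -0.808 to 0.289.

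With the set as a replicate block, edgeR called 6 of the 18 Hox regions lower at 4% and 0 higher, among 347 lower (3.41%) and 795 higher (7.81%) of 10177. Deviations of same-set libraries correlated at 0.435, but there are only 2 sets and the labels state no shared culture, so the pairing is not established. H3K36me3 read density was not run for the Hox regions under any alternative, as none had an island in all 4 libraries. The stricter and equal-number settings use the authors' scores, and the read depth of the MACS2 marks is unknown.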
